A study of Mus musculus with 36 samples.

Results

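The genes described here are 10 genes of lipoprotein and lipid transport in mouse melanoma: the apolipoprotein genes Apoe, Apoc1 and Apod, the lipase gene Lpl, the oxysterol synthesis gene Ch25h, and the ATP-binding cassette transporter genes Abca1, Abcg1, Abca9, Abca8a and Abca6. They were 10 of 54115 genes with a count. They were chosen by their values in these same libraries, which included the level in each cell source, the differences between genotypes and the response to serum. Those values are therefore given below as a description. No p-value is printed for them, and a call there only says that a value passed the thresholds of the fit and supports nothing. Tests are given for measures that the choice did not use, such as the difference between sexes. Tests are also given for other lipid genes and for genome neighbours. The list of lipid genes was made with earlier results of these data known, and some genes were named after their values were seen. Their adjusted p-values were therefore not set up blind to the data.

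The study compared mice wild type for macroH2A (WT) with mice lacking both macroH2A genes, H2afy and H2afy2, from birth and in every cell (dKO). macroH2A is a variant of histone H2A that carries a large extra domain. Mice of both genotypes also carried the alleles of an inducible melanoma model, among them Braf CA/CA and Tyr-CreERT2, in which the tyrosinase promoter restricts the recombinase to melanocytes, and melanomas were started by 4-hydroxytamoxifen applied to the back skin. WT and dKO mice had a mixed 129S, B6 and FVB background, so strain differences between the groups cannot be told apart from the deletion. RNA was sequenced 50 days after induction from bulk melanomas (6 WT and 6 dKO mice, in 3 batches given by the labels), from CD8+ T cells sorted from tumours (4 and 4, mice induced at 9 weeks of age), from cancer-associated fibroblasts sorted on CD140a (CAFs, 4 and 4, mice induced at 10 weeks of age), and from immortalized dermal fibroblasts of male mice (iDFs). The iDFs were cultured without tumour cells, starved for 24 h in 0.5% serum and then left as they were (0 min) or given serum for 30 min, with 2 replicates for each genotype and time. The iDF replicates were repeat experiments on the WT and dKO cell lines, so that line and genotype cannot be told apart there. CAFs and CD8+ T cells had 2 mice of each sex in each genotype, whereas 4 of 6 WT and 1 of 6 dKO bulk tumours were from females.

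Total counts assigned to genes lay between 17526681 and 85432438 per library. Fibroblast markers summed to 18889 to 28208 TPM in CAFs and 7621 to 9608 TPM in iDFs, and CD8+ T cell markers to 3604 to 5486 TPM in the sorted T cells, so the labelled sources carried their own markers. Summed reads of the targeted genes were lower but not absent in dKO CAFs, bulk tumours and iDFs, with H2afy2 at 21.4 CPM in WT and 12.2 CPM in dKO CAFs and H2afy at 58.2 and 51.5 CPM. In CD8+ T cells H2afy was at 85.5 CPM in WT and 82.0 CPM in dKO with overlapping ranges, and H2afy2 was near 0 in both (0.152 and 0.207 CPM), so the sums do not check the labels there. A sum over a gene does not show whether the reads came from the deleted part.

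Lipids travel between cells on lipoprotein particles. Apolipoproteins are the proteins of these particles: apolipoprotein E is a ligand of the low-density lipoprotein receptor family and takes up cholesterol released by cells, apolipoprotein C-I rides on the same particles and modulates lipoprotein enzymes, and apolipoprotein D is a small lipocalin that carries arachidonic acid and steroids. Lipoprotein lipase, from Lpl, frees fatty acids from triglyceride-rich particles. ABCA1 and ABCG1 export cholesterol to apolipoproteins and to lipoprotein particles, and their genes, like Apoe, are textbook targets of the liver X receptors, which sense oxysterols. Cholesterol 25-hydroxylase, from Ch25h, makes such an oxysterol. Abca9, Abca8a and Abca6 belong to a group of related transporter genes whose cargo is less well known.

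In the genome (GRCm38, coordinates of the GENCODE annotation) Apoe and Apoc1 are neighbours on the minus strand, Apoe at chr7:19696109-19699188 and Apoc1 at chr7:19689481-19692660, with 3448 bases between them. Abca8a (chr11:110025634-110095978), Abca9 (chr11:110100749-110168196) and Abca6 (chr11:110176820-110251776) lie in a row on the minus strand of chromosome 11, separated by 4770 and 8623 bases. The row is continued by Abca8b on one side and Abca5 on the other. The other genes are single: Lpl at chr8:68880491-68907448, Apod at chr16:31296192-31314808, Abcg1 at chr17:31057675-31117988, Ch25h at chr19:34473778-34475164 and Abca1 at chr4:53030787-53159895. Ch25h overlaps the non-coding gene Gm26902 on the opposite strand, and since the strand setting of the counting was not found in the labels or methods, its counts are uncertain to that degree. Windows of 75 bases, the read length, showed that 36 of 6444 in Abca8a also occur in Abca8b and that 21 of 10365 in Lpl occur in other genes, whereas the other 8 genes shared none.

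The RefSeq promoter table (GRCm38.p6) held 6 of the 10 genes in 8 entries, each running from 250 bases before the gene's start to 50 bases after it. Apoc1, Lpl, Abcg1 and Abca6 had no entry. Promoters are shown for the gene that rose most after serum and for a pair of genes that differed in opposite directions between genotypes in CAFs and iDFs. All lie on the minus strand and are written from 5′ to 3′. Capitals mark matches to TATAAA (the TATA box), TGACGTCA (the cyclic AMP response element), CACGTG (an E-box) or GGGCGG (the GC box), searched on both strands.
Ch25h, chr19:34475099-34475398: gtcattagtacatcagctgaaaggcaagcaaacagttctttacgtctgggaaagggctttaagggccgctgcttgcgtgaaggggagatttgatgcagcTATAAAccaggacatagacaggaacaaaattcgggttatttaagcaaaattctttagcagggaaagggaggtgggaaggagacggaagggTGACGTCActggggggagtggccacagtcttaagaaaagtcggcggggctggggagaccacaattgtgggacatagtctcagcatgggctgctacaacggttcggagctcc
Apoe, chr7:19699139-19699438: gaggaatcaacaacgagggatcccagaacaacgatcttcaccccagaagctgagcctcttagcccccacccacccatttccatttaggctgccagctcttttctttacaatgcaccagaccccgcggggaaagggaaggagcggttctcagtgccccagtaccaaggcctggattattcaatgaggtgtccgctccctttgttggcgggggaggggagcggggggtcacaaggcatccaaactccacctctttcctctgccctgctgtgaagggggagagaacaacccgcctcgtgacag
Abca8a, chr11:110095888-110096187: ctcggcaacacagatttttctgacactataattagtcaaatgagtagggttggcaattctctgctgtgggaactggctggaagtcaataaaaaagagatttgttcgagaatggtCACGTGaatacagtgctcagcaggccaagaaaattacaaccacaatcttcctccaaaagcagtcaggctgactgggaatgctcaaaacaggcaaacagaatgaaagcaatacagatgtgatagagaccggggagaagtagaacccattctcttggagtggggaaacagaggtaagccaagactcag
The Ch25h promoter held TGACGTCA from 61 to 54 bases before the start, a sequence found in 1.79% of the 32851 promoters of the table, and TATAAA from 151 to 146 bases before it, which 13.6% of promoters held. The Abca8a promoter held CACGTG from 136 to 131 bases before the start (7.15% of promoters). Apoe had 3 entries, of which the printed one held none of the 4 motifs. The entry at chr7:19698572-19698871 held TATA box matches from 96 to 91 and from 100 to 95 bases before its start, and the remaining entry held none. The liver X receptor motif was searched only as an exact pair of AGGTCA repeats with 4 bases between them, which 0.0152% of promoters held. Neither this exact pair nor the CArG box, which 1.63% of promoters held, was in any of the 8 entries. Receptor sites often differ from the exact letters, and looser forms were not searched, so its absence does not show that these promoters lack such a site. These matches describe the letters of these windows and do not show binding.

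The 10 genes differed widely in where they were expressed. Levels between genes and sources are given as TPM (reads per transcript length, scaled to the same total in each library), as medians over the libraries of both genotypes. Apod (4858 TPM), Abca8a (410), Lpl (245), Abca9 (68.9), Abca1 (37.8) and Abca6 (20.9) had their highest median in CAFs, that is 6 of 10 genes. Apoe and Apoc1 were highest in bulk tumours, at 3255 and 142 TPM, against 631 and 12.3 TPM in CAFs. Ch25h was highest in iDFs (50.6 TPM, over both serum times) and Abcg1 in CD8+ T cells (51.8 TPM). The iDF median of Ch25h pools unlike groups, since starved WT iDFs were at 4.81 and 5.54 TPM, within the CAF range of 2.89 to 11.6 TPM, and the libraries after serum at 74.6 to 174 TPM.

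Apoe followed the order bulk tumours, CAFs (631 TPM), iDFs (37.3 TPM) and CD8+ T cells (5.94 TPM), and of the neighbours in this order CAFs and iDFs had ranges that did not overlap. The genotypes differed within this order, with Apoe at 192 to 275 TPM in WT and 988 to 2259 TPM in dKO CAFs, and at 68.7 to 89.5 TPM in WT and 4.41 to 5.92 TPM in dKO iDFs, so the place of iDFs above CD8+ T cells rests on the WT libraries. Apoc1 was listed at a median of 0 in iDFs, and its bulk tumour and CAF ranges did not overlap. Apod was at 1677 TPM in bulk tumours, 69.9 in CD8+ T cells and 43.8 in iDFs, with a gap between the ranges of bulk tumours and CD8+ T cells. Lpl was at 83.1 TPM in bulk tumours and 49.4 TPM in iDFs, which overlapped, and at 0.769 TPM in CD8+ T cells, below both.

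Among the transporters, Abca1 was at 17.0 TPM in bulk tumours and 4.70 TPM in iDFs, without overlap. Abca9 was at 10.6 TPM in bulk tumours and 9.41 TPM in iDFs, which overlapped, and CAFs lay above both without overlap. Abca6 was at 1.504 TPM in bulk tumours and 0.130 TPM in iDFs, again with gaps between CAFs, bulk tumours and iDFs. Abcg1 showed another order, since CD8+ T cells were above bulk tumours (12.5 TPM) and CAFs (12.002 TPM), which overlapped, and iDFs (1.02 TPM) were lower than CAFs without overlap. The Abca8a level depended on a short transcript of 299 bases, which carried 44.4% of its TPM in CAFs and 69.7% in bulk tumours. Without transcripts under 500 bases the median of Abca8a was 240 TPM in CAFs and 64.6 TPM in bulk tumours.

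**Figure D1:**
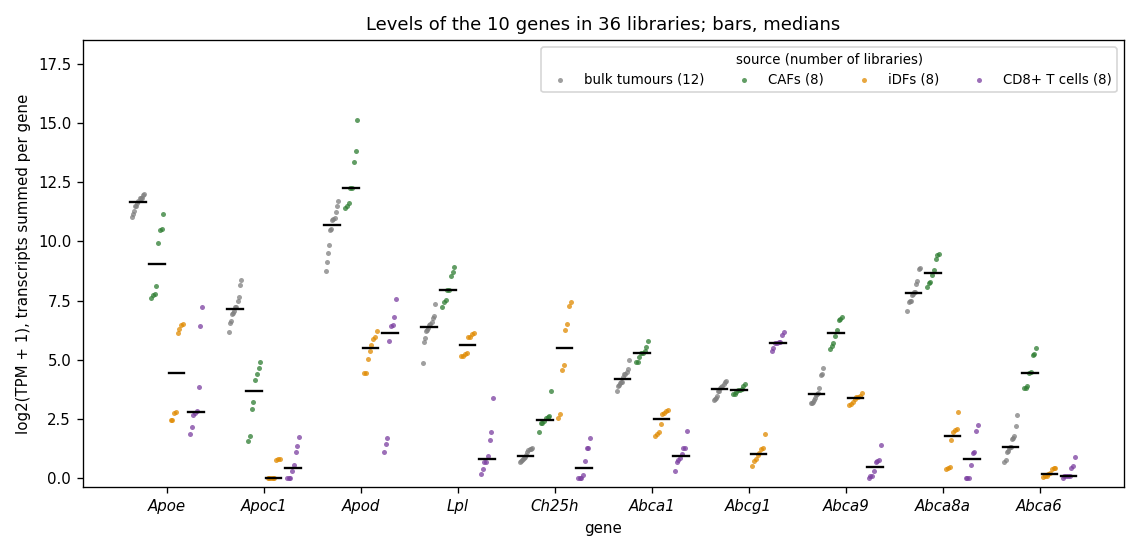
Levels of the 10 genes as log2(TPM + 1), transcripts summed per gene, in 12 bulk tumours, 8 CAF, 8 iDF and 8 CD8+ T cell libraries; each point is a library and black bars are medians. Apod, Lpl, Abca1, Abca9, Abca8a and Abca6 have their highest median in CAFs, Apoe and Apoc1 in bulk tumours, Ch25h in iDFs and Abcg1 in CD8+ T cells.

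Differences within a source are given in CPM (counts scaled to library size by the TMM method), and a gene is termed called when edgeR's quasi-likelihood test gave a Benjamini-Hochberg adjusted p under 0.05 over all tested genes and a log2 fold change beyond 0.75 in either direction. In CAFs, where all 10 genes passed the filter on low counts, the dKO against WT comparison called 5.48% of 15786 genes. Of the 10 genes 5 were called, all higher in dKO: Apoe, Apoc1, Abca9, Abca8a and Abca6. The median log2 fold change of the 10 was 0.92, against 0.00 over all tested genes. The genes had been chosen with this contrast in view, so that neither the count nor the median says anything beyond the choice. The same holds for groups that did not overlap, here and in iDFs. The share of all tested genes that separate the genotypes in this way is not given here.

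Apoe stood at 86.9, 94.9, 115 and 85.7 CPM in WT CAFs and at 676, 454, 1029 and 639 CPM in dKO CAFs. Every dKO mouse was above every WT mouse, and the log2 fold change was 2.85 ± 0.22 (SE), a 7.19-fold difference. Apoc1, its neighbour, was far lower at 0.313, 0.338, 0.992 and 0.703 CPM in WT and 2.59, 2.54, 3.80 and 2.94 CPM in dKO. The groups again did not overlap, with a log2 fold change of 2.40 ± 0.27. In reads Apoc1 had 8, 7, 27 and 20 in WT and 61, 71, 93 and 84 in dKO CAFs. It passed the low-count filter through its dKO libraries, so its call carries no weight. Within females the log2 ratio of dKO to WT means was 3.06 for Apoe and 1.87 for Apoc1, and within males it was 2.63 and 2.65.

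Macrophages are a rich source of Apoe in tissues, and their 8 markers were therefore read in the same libraries. The markers summed to 21.03 to 41.7 TPM in WT and 15.6 to 37.0 TPM in dKO CAFs, and none of the 8 had a higher mean in dKO. Bulk tumours had 558 to 1949 TPM of the same markers. The melanocyte markers summed to 388 to 566 TPM in WT and 76.0 to 350 TPM in dKO CAFs, while all 6 fibroblast markers had a higher mean in dKO, at 18889 to 24544 TPM in WT and 23211 to 28208 TPM in dKO. Of the 4 pericyte and smooth muscle markers, 3 had a higher and 1 a lower mean in dKO CAFs. Their sums were 20.8 to 71.3 TPM in WT and 49.0 to 87.7 TPM in dKO. The part of these shifts in the CAF results was not tested.

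The 3 neighbouring transporter genes differed in the same direction. Abca8a was at 523, 492, 459 and 707 CPM in WT and 1259, 783, 1179 and 1068 CPM in dKO CAFs, without overlap and with a log2 fold change of 0.98 ± 0.18. Abca6 was at 36.03, 31.7, 33.0 and 52.9 CPM in WT and 125, 60.1, 96.2 and 103 CPM in dKO, also without overlap (log2 fold change 1.33 ± 0.24). Abca9 was at 174, 157, 195 and 263 CPM in WT and 382, 244, 416 and 386 CPM in dKO, where the lowest dKO mouse was below the highest WT mouse (log2 fold change 0.86 ± 0.16). Leaving out WT replicate 1 or WT replicate 2 ended the calls of Abca8a and Abca6, with log2 fold changes of 0.82 to 1.12 and 1.06 to 1.51 over all leave-outs. The call of Abca9 was lost without WT replicate 2 or dKO replicate 1, with log2 fold changes of 0.71 to 0.97.

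Apod had the widest spread of the 10 genes in dKO CAFs. It was at 2160, 2145, 1308 and 1290 CPM in WT and at 16250, 6721, 1197 and 4590 CPM in dKO, where the first 2 mice of each group were male. Of the dKO mice 3 of 4 lay above all WT mice and 1 female lay below them, and the log2 fold change of 1.79 ± 0.50 was not called. Without that female, dKO replicate 3, Apod was called, with a log2 fold change of 2.18. Of the other genes, Ch25h was at 2.03 to 3.28 CPM in WT and 3.02 to 8.08 CPM in dKO (log2 fold change 0.70 ± 0.32), and Lpl at 385 to 861 and 308 to 933 CPM. Abca1, at 177 to 228 CPM in WT and 150 to 282 CPM in dKO, and Abcg1, at 22.2 to 27.9 and 19.2 to 25.9 CPM, overlapped between genotypes and were not called.

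**Figure D2:**
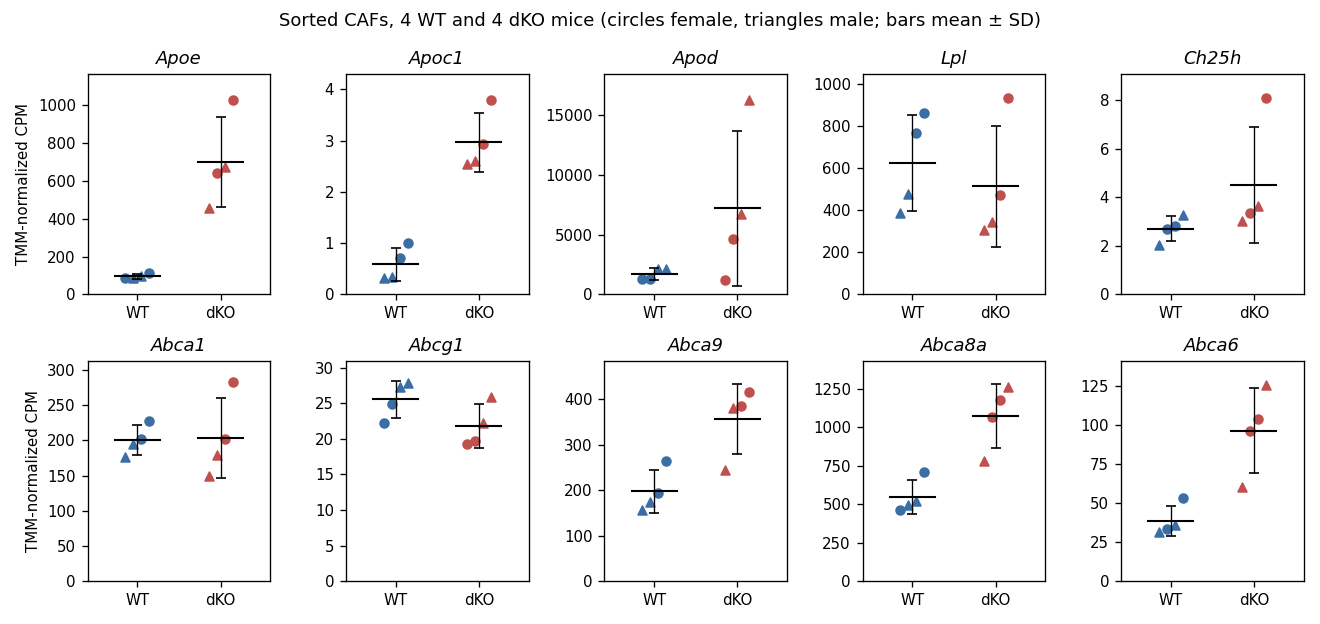
TMM-normalized CPM of the 10 genes in sorted CAFs of 4 WT and 4 dKO mice, with circles for females and triangles for males; bars are the mean ± SD. Apoe, Apoc1, Abca8a and Abca6 separate the genotypes without overlap, and Apod ranges from 1197 to 16250 CPM among dKO mice. Apoc1 passed the low-count filter through its dKO libraries, and the share of all genes that separate likewise is not given.

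Genes around Apoe were read in the same comparison. Of 10 other protein-coding genes within 100 kb of Apoe, 6 were tested in CAFs, and 1 was called higher in dKO. This was Nectin2, a cell adhesion gene, chosen for naming after its values were seen, at 33.7 CPM in WT and 63.9 CPM in dKO (log2 fold change 0.91 ± 0.09, edgeR adjusted p = 0.00105). The tested neighbours Bcam, Clptm1, Relb, Tomm40 and Clasrp had log2 fold changes of 0.16, -0.15, 0.17, -0.09 and 0.16, and none was called. On chromosome 11, Abca8b was at 115 CPM in WT and 218 CPM in dKO CAFs (log2 fold change 0.93 ± 0.26, edgeR adjusted p = 0.0628) and Abca5 at 41.0 and 59.0 CPM (0.52 ± 0.15, adjusted p = 0.0698), so both flanking genes of the row missed the threshold.

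In iDFs the same genotype comparison gave other values. Of the 10 genes 9 passed the filter, since Apoc1 had at most 3 reads in any iDF library and none in the 4 dKO libraries. At 0 min, 6 of the 9 were called (2 higher and 4 lower in dKO), with a median log2 fold change of -1.04 and with 9.04% of 15047 genes called. After 30 min of serum, 7 of the 9 were called (3 higher and 4 lower), with a median of -0.88 and 8.96% of genes called.

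Apoe was lower in dKO iDFs. It was at 30.5 and 33.5 CPM in WT against 2.48 and 3.20 CPM in dKO at 0 min, and at 34.3 and 38.9 against 2.70 and 3.597 CPM after 30 min. The log2 fold changes were -3.50 ± 0.15 and -3.54 ± 0.15, so that dKO iDFs had 0.0886 and 0.0858 of the WT level. The direction was the opposite of that in CAFs. The difference between the sources was not tested, because each was fitted on its own. Macrophage markers summed to 1.68 to 5.69 TPM in iDFs, and Adgre1 and C1qa were listed at 0 in all 8 libraries.

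Abca8a and Abca6 were likewise lower in dKO iDFs and higher in dKO CAFs. Abca8a was at 9.48 and 10.2 CPM in WT and 1.75 and 1.01 CPM in dKO at 0 min, and at 9.95 and 10.4 against 1.21 and 1.44 CPM after 30 min (log2 fold changes -2.81 ± 0.21 and -2.94 ± 0.22). Abca6 was near the limit of detection, with 24 and 11 reads in WT and 4 and 6 reads in dKO libraries at 0 min and 27 and 25 against 4 and 9 reads after 30 min. Its log2 fold changes of -1.98 ± 0.55 and -2.05 ± 0.51 were called, but at each time leaving out any of 3 libraries ended the call. The gene passed the low-count filter through its WT libraries and so had to differ, and its call carries no weight. Abca9, which lies between these 2 genes, was at 37.6 and 42.2 CPM in WT and 29.1 and 35.8 CPM in dKO at 0 min, a log2 fold change of -0.30 ± 0.10 that was not called.

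In CPM the 2 cholesterol exporters leaned in opposite directions in iDFs. Abca1 was at 38.5 and 38.9 CPM in WT and 17.2 and 18.7 CPM in dKO at 0 min, and at 37.1 and 35.9 against 16.9 and 20.1 CPM after serum (log2 fold changes -1.11 ± 0.08 and -0.98 ± 0.08). Abcg1 was at 1.83 and 1.52 CPM in WT and 3.31 and 2.30 CPM in dKO at 0 min, and at 1.54 and 1.85 against 3.68 and 3.34 CPM after serum. Its log2 fold change was 0.74 ± 0.24 at 0 min, just inside the fold threshold and not called, and 1.05 ± 0.24 after serum, which was called. In TPM the Abcg1 genotypes overlapped at both times, at 0.744 and 1.43 in WT and 1.37 and 0.638 in dKO at 0 min and at 0.429 and 1.079 against 0.961 and 2.60 after serum. In CAFs the genotypes overlapped for both genes.

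Lpl was higher in dKO iDFs, at 144 and 163 CPM against 85.8 and 87.0 CPM in WT at 0 min and at 157 and 170 against 85.1 and 81.2 CPM after serum. The log2 fold changes were 0.83 ± 0.07 and 0.97 ± 0.07, and both were called. Apod was at 24.7 and 31.1 CPM in WT and 9.65 and 17.6 CPM in dKO at 0 min, and its log2 fold changes of -1.04 ± 0.32 and -0.88 ± 0.33 were not called.

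The serum comparison asked which of these genes respond within 30 min. Ch25h was the gene of the 9 that was called, in WT iDFs, where 1.95% of genes were called, and in dKO iDFs, where 3.28% were. It was at 3.40 and 3.88 CPM in WT iDFs at 0 min and 54.6 and 66.5 CPM after serum, a 16.7-fold rise (log2 fold change 4.06 ± 0.16). In dKO iDFs it was at 19.6 and 16.7 CPM at 0 min and 120 and 139 CPM after serum, a 7.12-fold rise (log2 fold change 2.83 ± 0.13). dKO iDFs thus had the higher level at both times, by a log2 fold change of 2.32 ± 0.17 before and 1.10 ± 0.12 after serum. The other 8 genes had log2 fold changes between -0.21 and 0.69 in WT and between -0.07 and 0.63 in dKO after serum.

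The genotype by serum interaction for Ch25h, which is the difference between both responses, was -1.23 ± 0.22 on the log2 scale. edgeR did not call it and called 0 of the 9 genes, with 0.0133% of all genes called. DESeq2 called 1 of the 9, Ch25h. As both responses belong to the values by which Ch25h was chosen, the interaction stands as a description.

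**Figure D3:**
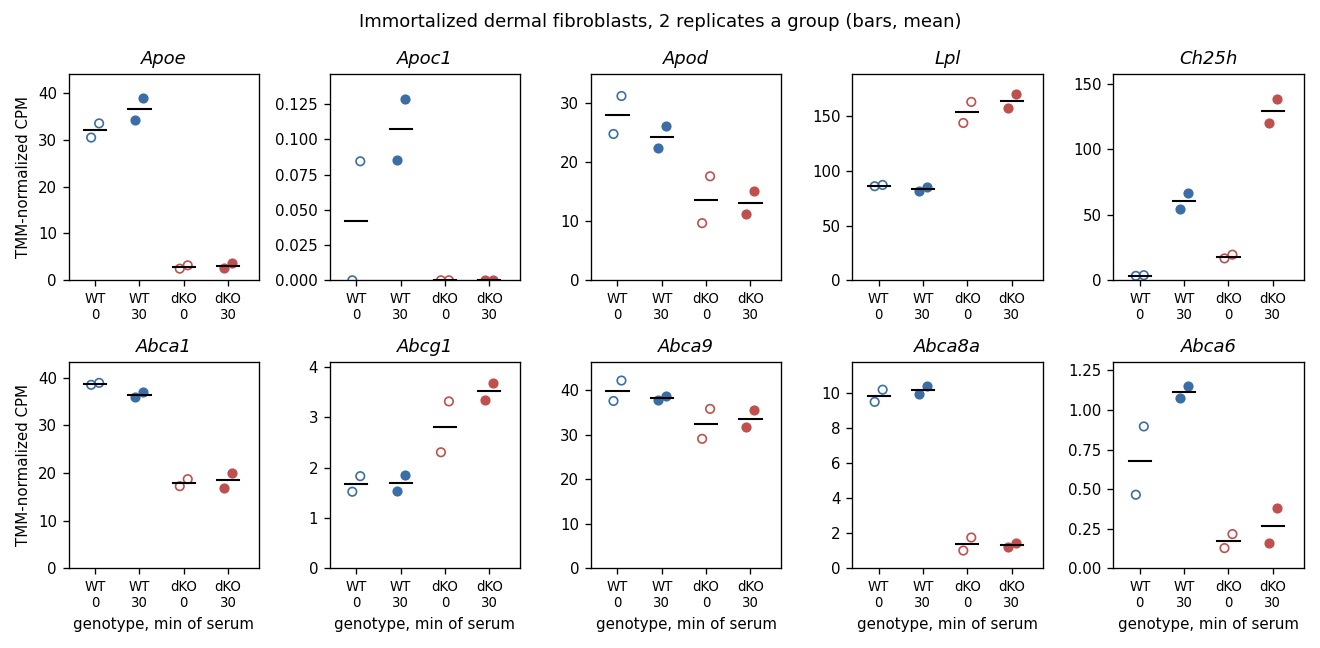
TMM-normalized CPM of the 10 genes in iDFs of WT and dKO at 0 and 30 min of serum, 2 replicates a group (open points 0 min, filled points 30 min, bars the mean). Ch25h rises from 3.40 and 3.88 to 54.6 and 66.5 CPM in WT, while Apoe, Abca1 and Abca8a differ by genotype at both times.

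In bulk tumours all 10 genes were tested and 0 were called by edgeR for dKO against WT, with 0.0442% of 18097 genes called. In a bulk sample fewer cells of a type and less RNA per cell cannot be told apart. Apoe had a lowest, median and highest value of 1645, 2021 and 2309 CPM in WT and 1395, 1685 and 2246 CPM in dKO tumours (log2 fold change -0.20 ± 0.15). Apoc1 had 19.8, 35.2 and 52.7 CPM in WT and 11.8, 18.0 and 24.3 CPM in dKO (log2 fold change -0.75 ± 0.27). The Apoc1 groups overlapped, and the log2 ratio of means within the batches was -1.08, -0.38 and -1.30. Apod ranged from 316 to 1210 CPM in WT and from 264 to 2217 CPM in dKO, with a log2 fold change of 1.01 ± 0.55 and within-batch ratios of 0.83, -0.05 and 1.197. Unlike the log2 fold changes, the ratios within batches were not adjusted for sex. In batch 3 both WT tumours were from females and both dKO tumours from males, so sex and genotype cannot be told apart in that ratio.

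Apoe was therefore 7.19-fold higher in dKO than in WT CAFs, while the bulk tumours these genotypes gave had overlapping levels. The summed macrophage markers ranged from 558 to 1353 TPM in WT and from 961 to 1949 TPM in dKO tumours, and all 8 had a higher mean in dKO. DESeq2 also called 0 of the 10 genes in bulk tumours.

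**Figure D4:**
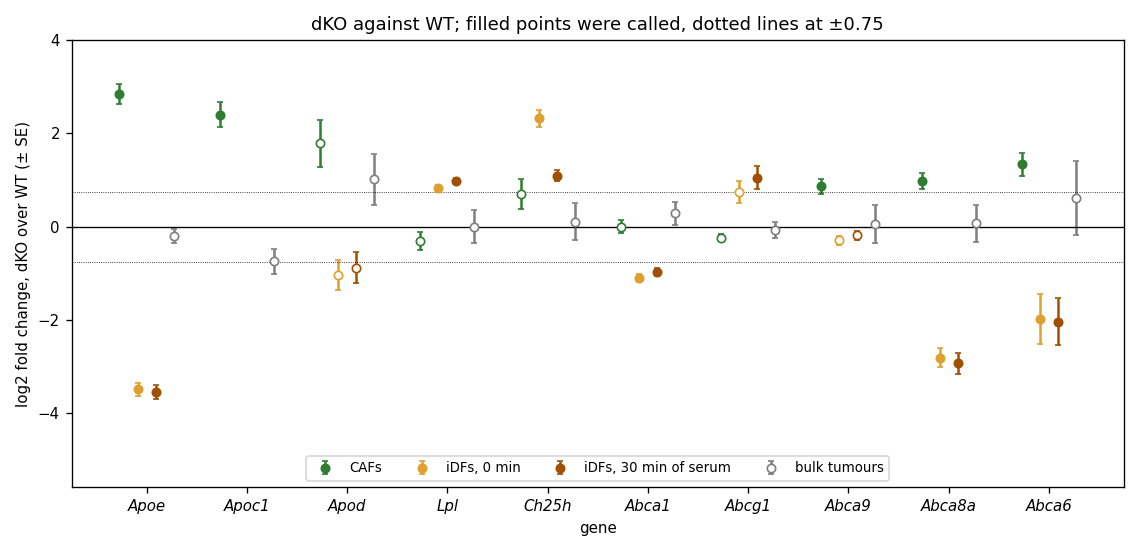
Log2 fold change of dKO over WT with its SE for the 10 genes in CAFs, iDFs at 0 and 30 min of serum and bulk tumours; filled points were called and dotted lines mark the fold threshold of 0.75. Apoe, Abca8a and Abca6 lie above 0 in CAFs and below 0 in iDFs at both times, and no bulk tumour point was called. In iDFs Abca6 passed the low-count filter through its WT libraries, so its points there carry no weight.

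In CD8+ T cells 8 of the 10 genes passed the filter, without Apoc1 and Abca6. For dKO against WT edgeR called 0 of the 8, with 0.495% of 14944 genes called. DESeq2 called 0 as well. Abcg1 was at 259, 201, 365 and 264 CPM in WT and at 243, 243, 195 and 345 CPM in dKO (log2 fold change -0.07 ± 0.22). Apoe was at 5.69, 4.42, 2.80 and 83.8 CPM in WT and at 2.94, 11.6, 138 and 5.38 CPM in dKO, so 1 library in each group was far above the others. These 2 libraries also had the highest macrophage marker sums, 465.5 and 595.5 TPM, and over the 8 libraries Apoe and the macrophage sum had a Pearson correlation of 0.898, as a description of points that share a library. Without both, the log2 fold change of Apoe was 0.73 (0.60 ± 2.52 with them) and no gene of the 8 was called. Apod and Abca8a, at 1.04 to 145 and 0 to 17.5 CPM over the 8 libraries, went with the fibroblast marker sum, with correlations of 0.813 and 0.786. Of these libraries dKO replicate 3 also had the highest fibroblast marker sum, 698.6 TPM. Its neutrophil markers summed to 135.2 TPM, against 0.043 to 6.57 TPM in the others. The part of other cells in these values was not tested.

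The sexes could be compared as a measure that the choice of genes did not use. In CAFs, where 1.91% of genes were called for male against female, 1 of the 10 genes was called. Lpl was lower in males, at 477 and 385 CPM in WT males against 861 and 768 CPM in WT females and at 344 and 308 against 933 and 474 CPM in dKO (log2 fold change -1.01 ± 0.20, edgeR adjusted p = 0.0429). The sexes did not overlap within either genotype. Endothelial markers summed to 67.8 to 85.8 TPM in the 4 males and 88.6 to 176 TPM in the 4 females, and adipocyte markers to 3.67 and 1.38 TPM in WT males, 8.36 and 8.08 in WT females, 1.93 and 0.980 in dKO males and 3.27 and 1.61 in dKO females. Their part in the Lpl values was not tested. The call held in 4 of 11 alternative fits and in 2 of 8 fits without 1 library, those without dKO replicate 3 or 4, with adjusted p-values up to 0.152. Apod was higher in males by 1.36 ± 0.50 on the log2 scale and Apoc1 lower by a log2 fold change of -0.76 ± 0.26, and neither passed the test (edgeR adjusted p = 0.175 and 0.151). The sex comparison by edgeR called 0 of 10 genes in bulk tumours (0.0332% of genes called) and 0 of 8 in CD8+ T cells (0.00669%), with 0 at an unadjusted p under 0.05 in both and 0 by DESeq2.

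The wider pathway was read from 91 other lipid genes in 8 groups, listed with earlier results of these data known. In CAFs 73 were tested for dKO against WT and 1 was called. Dhcr7, which makes cholesterol from its last precursor, was lower in dKO, at 70.1, 67.1, 36.4 and 34.2 CPM in WT and 33.1, 32.6, 19.7 and 22.7 CPM in dKO (log2 fold change -0.90 ± 0.09, edgeR adjusted p = 0.000997). Without a sex term in the fit it was not called (edgeR adjusted p = 0.115). Of 23 genes of sterol synthesis, 1 was called lower, 0 were called higher and 4 leaned towards dKO, and their median log2 fold change was -0.19. Nr1h3, the liver X receptor alpha gene, was at 5.93 to 8.53 CPM in WT and at 10.9 to 34.4 CPM in dKO without overlap, but did not pass the test (log2 fold change 1.32 ± 0.35, edgeR adjusted p = 0.0598). The 10 receptor partners and targets it belongs to included 0 called genes and had a median log2 fold change of -0.05.

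The lipid genes were also compared between sexes in CAFs. For male against female 6 of the 73 were called (8.22%, against 1.91% of all genes), all of them higher in males and all from the 23 sterol synthesis genes, of which 22 were on the male side (median log2 fold change 0.58). Msmo1, a sterol methyl oxidase, was at 69.8, 74.9, 48.5 and 48.4 CPM in the 4 males and at 29.9, 33.4, 16.6 and 18.6 CPM in the 4 females (log2 fold change 1.32 ± 0.08, edgeR adjusted p = 0.000521). Fdft1, squalene synthase, was higher in males by a log2 fold change of 1.22 ± 0.19 (adjusted p = 0.0223 by edgeR). Sqle, squalene epoxidase, Dhcr7 and Idi1, an isopentenyl isomerase, had log2 fold changes of 0.80, 0.80 and 0.76. Lpl went the other way. Without WT replicate 2 the number of lipid genes called was 1. Schwann cell markers summed to 69.8 to 122 TPM in males and 17.5 to 68.4 TPM in females, and the part of other cells in these differences was not tested. The same 23 genes had 0 calls and a median of -0.29 between sexes in bulk tumours.

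**Figure D5:**
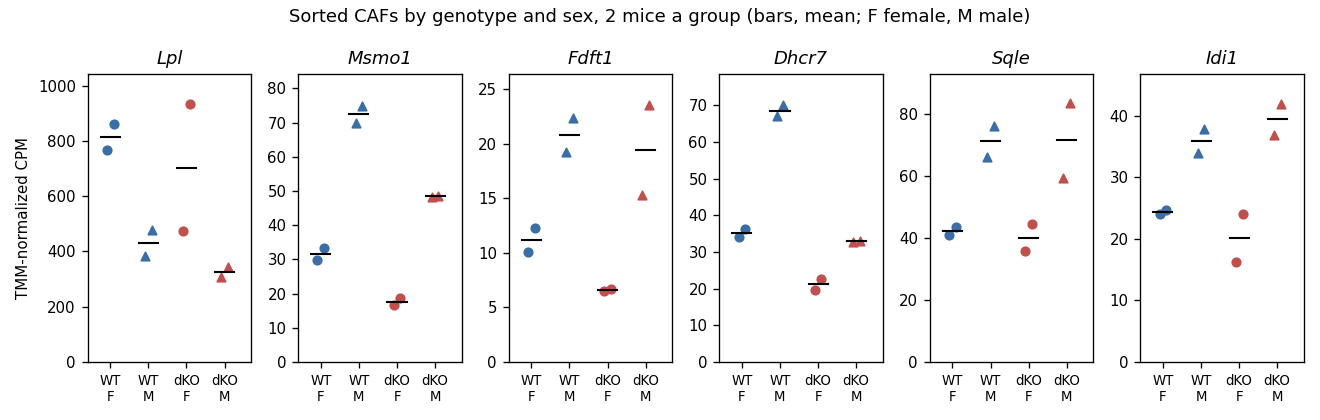
TMM-normalized CPM in CAFs of Lpl and of 5 sterol synthesis genes called between sexes, by genotype and sex with 2 mice a group (circles female, triangles male, bars the mean). Lpl is higher in females and the other 5 genes are higher in males within both genotypes.

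In iDFs 69 of the lipid genes were tested. At 0 min 6 were called for dKO against WT, 3 higher and 3 lower, which is 8.70% of them against 9.04% of all genes. After serum 7 were called, 2 higher and 5 lower (10.1% against 8.96%), so both shares were near the background. Sorl1, a sorting receptor that binds apolipoprotein E, was higher in dKO, at 4.33 and 3.88 CPM in WT and 11.24 and 11.98 CPM in dKO at 0 min (log2 fold change 1.496 ± 0.124, edgeR adjusted p = 3.4e-05). Vldlr, another apolipoprotein E receptor, was higher at 0 min (0.77 ± 0.11, adjusted p = 0.00148 by edgeR). The scavenger receptor gene Cd36 had 0 and 2 reads in WT and 18 and 11 reads in dKO at 0 min, and 0 and 1 against 16 and 16 reads after serum. It is counted among the called genes, but it passed the low-count filter through the dKO libraries alone and so had to differ. Receptors were also among the lower genes, with Lrp2, the megalin gene, at log2 fold changes of -0.88 ± 0.12 and -1.15 ± 0.12 at both times and Lrp8 at -0.75 ± 0.14 after serum.

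Cyp7b1, which clears 25-hydroxycholesterol, the product of cholesterol 25-hydroxylase, was lower in dKO iDFs while Ch25h was higher. It was at 2.61 and 2.83 CPM in WT and 0.701 and 0.936 CPM in dKO at 0 min (log2 fold change -1.73 ± 0.28, edgeR adjusted p = 0.00156) and at 3.46 and 3.18 against 0.704 and 1.18 CPM after serum (-1.81 ± 0.28, adjusted p = 0.00118). Abca8b was lower in dKO iDFs, as was its neighbour Abca8a, while Abca9, the next gene of the row, was not called at either time. The log2 fold changes of Abca8b were -0.78 ± 0.16 and -1.09 ± 0.17 (edgeR adjusted p = 0.00605 and 0.00109). Nr1h3 was lower after serum (-1.20 ± 0.30, edgeR adjusted p = 0.015), the opposite direction to its values in CAFs. Sterol synthesis genes had 0 calls at 0 min, with 19 of 23 negative and a median of -0.38.

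After serum 1 of the 69 lipid genes was called in WT iDFs and 2 in dKO iDFs, all higher. Insig1, a sterol-regulated brake on sterol synthesis, rose in dKO from 166 and 163 to 303 and 317 CPM (log2 fold change 0.92 ± 0.04, edgeR adjusted p = 2.9e-06). In WT it was at 234 and 231 CPM before and 370 and 384 CPM after serum, a log2 fold change of 0.70 (edgeR adjusted p = 1.8e-05) that was under the fold threshold. The interaction of genotype and serum called 0 of 69 lipid genes with edgeR, with 1 at an unadjusted p under 0.05, Insig1, and 0 with DESeq2.

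Other lipid genes were also read in bulk tumours and CD8+ T cells. Of 77 tested in bulk tumours edgeR called 0, where 5 had an unadjusted p under 0.05. DESeq2 called 1, Clu, the clusterin gene, which was at 101 CPM in WT and 53.0 CPM in dKO (log2 fold change -0.86 ± 0.22, edgeR adjusted p = 0.372). The gene with the next smallest p was Msr1, a macrophage scavenger receptor, with a log2 fold change of 1.12 ± 0.36 (edgeR adjusted p = 0.502). Of 63 tested in CD8+ T cells edgeR called 0 and DESeq2 0, with 9 at an unadjusted p under 0.05. Fabp5, a fatty acid binding protein, had the smallest p, with a log2 fold change of 0.88 ± 0.26 (edgeR adjusted p = 0.263). Between sexes edgeR called 0 of the 77 genes in bulk tumours, with 4 at an unadjusted p under 0.05, and 0 of the 63 in CD8+ T cells, also with 4, while DESeq2 called 0 and 1. Pnpla2 and Nr1h3 had the smallest p in bulk tumours (log2 fold changes 0.66 and 0.60, edgeR adjusted p = 0.81 for both). Rxra, which DESeq2 called, and Srebf1 had the smallest p in CD8+ T cells (log2 fold changes 1.30 and 0.59, edgeR adjusted p = 0.613 and 0.833).

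The genes whose level went most closely with each of the 10 were found from Pearson correlations of log2(TPM + 1) over the 36 libraries, after the mean of each of the 10 groups was subtracted, among 14010 protein-coding genes. The libraries share depth, sort and batch, so the correlations are a description. In CD8+ T cells Apoe was at 84.4 TPM in WT replicate 4 and 149 TPM in dKO replicate 3, against 2.64 to 13.4 TPM in the others. These 2 libraries, the highest in macrophage markers, weigh heavily in its correlations. Apod, at 1.12 to 189 TPM in CD8+ T cells, was also widely spread there. For Apoe the closest genes were Tlr2 (0.865), Adgre1 (0.859) and Ccl8 (0.858), of which Adgre1 is a macrophage marker. For Apod they were Enpp2, Tm4sf1 and Timp3 (0.903 to 0.874), for Abca9 Ecm2, Adamts12 and Meox2 (0.898 to 0.83), for Lpl Shtn1, Adamts12 and Igsf10 (0.827 to 0.82), and for Abca8a Gfra2, Rcn3 and Cygb (0.832 to 0.797). For Abca6 they were Rapgef6, Ogt and Adam5 (0.807 to 0.771), for Abca1 Tmem245, Wdfy2 and Ino80 (0.757 to 0.737), for Ch25h Oas1g, Prlr and Ska2 (0.706 to 0.691), for Apoc1 Ggt5, Dync2li1 and Dnajc28 (0.68 to 0.647) and for Abcg1 Kit, Acot11 and Atp6v1b2 (0.635 to 0.571). Among the 10 genes themselves, Abca9 and Lpl had a correlation of 0.746, Apoe and Lpl 0.695, and the neighbours Apoe and Apoc1 0.249. In the row on chromosome 11, the neighbours Abca9 and Abca8a had 0.663 and the neighbours Abca6 and Abca9 0.608. Abca6 and Abca8a, which have Abca9 between them, had 0.0164.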

How the data were processed

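Per the labels and the study's methods, the authors mapped 75-base reads to the GENCODE M25 gene set of GRCm38.p6 with Salmon 1.2.1 and deposited, for each library, estimated counts and TPM per transcript. A directional kit was used for tumours, CAFs and iDFs and a low-input kit for CD8+ T cells, and Salmon's strand setting was not found in the labels or methods. Estimated counts and TPM were summed per gene with the earlier GENCODE M21 annotation, which named 139791 of 140992 transcripts (99.15%), and rows without a gene held 0.25% to 0.52% of counts. Sums of counts were rounded. CAF, CD8+ T cell, bulk tumour and iDF libraries had 20164075 to 29135123, 17526681 to 28690034, 22245177 to 85432438 and 22560402 to 30960463 counts, and were fitted separately, since RNA inputs differed (80 ng for CAFs, 5 ng for CD8+ T cells, 1000 ng for tumours and iDFs).

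Per fit, genes passed filterByExpr (minimum count 10, minimum total 15), libraries were scaled by TMM, and edgeR 4.0.16 (R 4.3.3; robust quasi-likelihood test) was run with batch, sex and genotype in bulk tumours, sex and genotype in CAFs and CD8+ T cells, and the 4 groups in iDFs. P-values were adjusted over all genes tested. The fit was tested on simulated data. DESeq2 1.42.0 was an alternative, beside no low-count filter, no sex or batch term, no fold threshold, a replicate block and fits without 1 library. Within a group the least different pair of replicates had a chi-square of 3.97 per gene, so none was a second copy of another.

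The members and lists were chosen with earlier results of these data known. Named lipid genes were those called, at most 6 per comparison by smallest p, or the 2 of smallest p where none was called, and the 3 genes most correlated with each member. Bcam, Clptm1, Relb, Tomm40, Clasrp, Nectin2, Abca5, and Nr1h3 and Abca8b in CAFs were named after their values were seen. Macrophage, melanocyte, fibroblast, endothelial, adipocyte, Schwann cell, CD8+ T cell, keratinocyte, neutrophil, and pericyte and smooth muscle markers were summed as TPM. Some items are not reported here.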

Additional observations from a re-analysis of the deposited data

Results flagged for a closer look

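Single libraries stood apart in 6 of 59 groups of 4 or 6 samples that were examined. A rate of about 1 in 20 by chance would hold only for independent groups. Groups of different genes share libraries here, so the number flagged is a description. In CD8+ T cells Apoe was at 83.8 CPM in WT replicate 4 (2.80 to 5.69 CPM in the others) and at 138 CPM in dKO replicate 3 (2.94 to 11.6 CPM), the libraries with the highest macrophage marker sums. Lpl was at 19.5 CPM in the same dKO replicate 3, against 1.05 to 2.21 CPM. That library also had the highest fibroblast and neutrophil marker sums of the CD8+ T cell libraries. Over the 8 libraries Lpl had a Pearson correlation of 0.831 with the fibroblast sum and 0.741 with the macrophage sum. Ch25h was at 2.31 CPM in CD8+ T cell WT replicate 1 (0 to 0.104 CPM in the others) and at 8.08 CPM in CAF dKO replicate 3 (3.02 to 3.62 CPM). Abcg1 was at 65.0 CPM in bulk tumour WT replicate 5, against 37.4 to 46.8 CPM.

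Apoe, Abca8a and Abca6 differed by genotype in opposite directions in CAFs and in iDFs at 0 min, with every dKO library above every WT library in CAFs and below every WT library in iDFs. The log2 fold changes were 2.85 and -3.50 for Apoe, 0.98 and -2.81 for Abca8a, and 1.33 and -1.98 for Abca6. In iDFs Abca6 passed the low-count filter through its WT libraries, so its value there carries no weight. The share of all tested genes that separate the genotypes in this way is not given here. The difference between the sources was not tested.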

How the results depend on the processing

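No called value changed direction in these alternatives. Of the recomputed counts 269 stayed within 1.5 times the reported count and 39 did not, and of the recomputed log2 fold changes of the 10 genes 781 moved by no more than the spread between replicates and 45 by more. With DESeq2, lipid genes called became 1 in bulk tumours and 4 in CAFs for genotype and 1 in CD8+ T cells for sex, and the interaction called 1 of the 9 genes described. Without the low-count filter, the lipid genes called were 3 in CD8+ T cells and 2 in CAFs for genotype, 2 for serum in WT iDFs and 1 in CD8+ T cells for sex, and the genes described that were called were 1 in CD8+ T cells for genotype, 2 there for sex and 0 in CAFs for sex. Without a sex term 0 lipid genes were called in CAFs for genotype. Without the fold threshold the lipid genes called were 9 in CAFs, 40 and 42 in iDFs at 0 and 30 min, 13 and 13 for serum in WT and dKO iDFs, and 14 in CAFs for sex. The cause was not tested, except that dropping the fold threshold can add calls and cannot remove them.

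Leaving out 1 library at a time gave 1 to 5 lipid genes and 2 to 6 of the 10 genes called in CAFs for genotype (2 without WT replicate 2 and 3 without WT replicate 1), and 1 to 6 and 0 to 1 for sex (1 lipid gene without WT replicate 2). It gave 5 to 7 lipid genes and 5 to 6 of the 9 genes in iDFs at 0 min, 5 to 8 and 5 to 8 at 30 min, 0 to 2 for serum in WT (0 without the 30 min replicate 2), 2 to 4 in dKO, and 0 to 1 lipid genes in CD8+ T cells for sex (1 without dKO replicate 4). A fit that leaves a group with 1 library assumes that it varies like the others. The iDF replicate numbers were not taken as pairs, since correlations of deviations between same-numbered libraries were 0.018 to 0.132. With the replicate block, 7, 8, 1, 1 and 0 of the 9 genes were called at 0 min, at 30 min, for serum in WT and in dKO, and for the interaction, and 6, 9, 2, 3 and 0 lipid genes. Apod was called at both times with the block and at neither without it. The fit without the 2 CD8+ T cell libraries highest in macrophage markers, TPM without short Abca8a transcripts, and the counts of the 10 genes under each setting were added after seeing the data. The number of genes highest in CAFs was 6 in each of 4 alternatives.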
